A study of Mus musculus with 6 samples.

Results

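The genes described here mark the cells of the heart's blood vessels. They were taken by name from the deposited table of ribosome-protected fragments, and all 34 were found among its 49585 gene rows: 26 genes of the endothelium, the cell layer that lines vessels and the chambers, and 8 genes of mural cells, the pericytes and smooth muscle cells that wrap them. The names were chosen from what the genes are known for, with earlier results of these data known. Such fragments are the pieces of mRNA left after nuclease digestion because a ribosome covered them, so a gene's fragment count follows its mRNA level and its translation together. The hearts came from male mice of 8 or 9 weeks in 2 groups of 3 libraries. The ground control (GC) was kept at 1 g and is labelled C57BL/6 J. The partial gravity group (PG) lived at 0.167 g, close to lunar gravity, in a centrifuge of 15 cm radius turning at 31 rpm, and the labels give no strain for it apart from that of GC. By the labels, ground mice lived in conditions matched to those on the space station, and flown mice at 1 g were not analysed here, so flight and gravity cannot be told apart. Nothing says that each library is a different animal, so p-values measure the spread between these libraries. Whole hearts were extracted, so the vessel genes were read together with those of cardiomyocytes. CPM are read counts scaled to a common library total, with TMM factors. In GC, 8 ventricular cardiomyocyte markers summed to 42401 to 44449 CPM, against 1317 to 1428 for the 26 endothelial genes. The share of fragments from each cell type was not measured. All 34 members had at least 1 read, including the defining endothelial markers Pecam1 and Cdh5 and the defining mural markers Pdgfrb and Rgs5.

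Endothelial cells sense vascular endothelial growth factor and angiopoietins through receptor tyrosine kinases, seal the vessel wall with junction proteins, and release nitric oxide and von Willebrand factor into the tissue and blood. Pericytes sit on capillaries and respond to platelet-derived growth factor and Notch signals, while smooth muscle cells carry the contractile proteins that set the width of arteries. Transcription factors of the ETS family, among them Erg and Ets1, are known to keep endothelial genes active.

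Some endothelial members carry the sequence such factors bind. RefSeq (GRCm38.p6) gave 20 start sites for 15 of the 26 endothelial genes and 5 for 5 of the 8 mural genes. The motifs CAGGAAG and CCGGAAG, forms of the ETS core, were searched on both strands of the 250 bases upstream of each start site, and no other motif was searched. A match was present in 30% of the endothelial windows (6 of 20, in 5 genes) and in 20% of the mural windows (1 of 5), against 17% of all 32851 promoter windows. One stretch per gene is shown, in the direction of the gene, so that the context of each match can be seen. Capitals mark the motif, which appears as its reverse complement CTTCCTG where it lies on the opposite strand.
Egfl7 (chr2:26580966-26581026, plus strand): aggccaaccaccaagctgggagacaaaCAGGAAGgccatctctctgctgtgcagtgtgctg
Calcrl (chr2:84425300-84425360, minus strand): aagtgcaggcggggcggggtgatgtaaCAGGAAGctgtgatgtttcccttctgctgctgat
Emcn (chr3:137340877-137340937, plus strand): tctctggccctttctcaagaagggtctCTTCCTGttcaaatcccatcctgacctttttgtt
Robo4 (chr9:37401895-37401955, plus strand): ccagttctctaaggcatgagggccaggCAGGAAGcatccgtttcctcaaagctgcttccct
Erg (chr16:95459355-95459415, minus strand): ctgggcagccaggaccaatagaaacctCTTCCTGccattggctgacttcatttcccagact
Mylk (chr16:34784786-34784846, plus strand): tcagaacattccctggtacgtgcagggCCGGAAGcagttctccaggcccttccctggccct
The matches end 84 bases (Egfl7), 61 (Calcrl), 168 (Emcn), 44 (Robo4), 34 (Erg) and 131 (Mylk) upstream of the start site of their window. Those of Calcrl, Robo4, Erg and Mylk lie inside the annotated span of the gene, so these start sites are not the outermost ones. For Erg that span is 95359169 to 95586600 and for Mylk 34745199 to 35002436. The matches describe the letters in these windows and say nothing of binding in these hearts.

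Egfl7 also hosts the endothelial microRNA miR-126, whose mature 3p strand is shown with its seed (bases 2 to 8) in capitals.
mmu-miR-126a-3p (chr2:26591402-26591423, plus strand): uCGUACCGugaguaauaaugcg
This strand is 22 bases long, shorter than the fragments of 25 to 35 nt cut from the gel. The Mir126a row was listed at 0 reads, exons and introns, in all 6 libraries.

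The members took a small part of the reads. Libraries held 2212473 to 3196070 exon reads, of which Lars2 and Tmem38b took 45.5% to 52.5%, leaving 1105514 to 1663167 for all other genes. Introns held 4228102 (PG replicate 3) to 6423698 (GC replicate 3) reads over all genes, more than the exons in every library. Whether the reads in introns or exons all come from ribosomes was not tested. The 34 members had 3644 to 6055 reads per library, or 0.33% to 0.41% of those other reads. PG replicate 3 stood apart from the other PG libraries over all genes, with a chi-square per degree of freedom of 24.2 and 14.8 against them, where GC libraries differed by 4.16 to 5.15.

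The comparison of PG with GC asks whether the fragment counts of vessel genes differ between the 2 groups of hearts. No endothelial or mural member passed an adjusted p of 0.05 (quasi-likelihood test of edgeR, Benjamini-Hochberg over all 9124 genes tested). Of all genes, 0.581% were called, 0.252% higher and 0.329% lower in PG. Of the 34 members, 32 had enough reads to be tested. The 25 tested endothelial genes had a median log2 fold change (PG over GC) of -0.05, with 8 positive and 17 negative, and the 7 tested mural genes one of 0.13, with 5 positive and 2 negative. Over all genes tested the median was 0.00 and 49.8% were positive. At an unadjusted p under 0.05 stood 1 of the 32, Rgs5, on the higher side, where the share over all genes was 10.4%, or 4.82% on the higher side. The values of the groups did not overlap in 2 of the 32, Rgs5 above and Ramp2 below, against 16.3% of all genes tested (8.06% above and 8.25% below). In the authors' deposited table, too, no member passed a false discovery rate of 0.05, and Rgs5 was the member with an unadjusted p under 0.05 (0.0107, with a signed fold of 1.35).

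The intervals say how large a difference these libraries still allow. For 12 of the 32 tested members the 95% interval of the fold change lay within 1.5-fold in either direction, as it did for 19.9% of all genes tested. For 29 of the 32 it lay within 2-fold (57.9% of all genes). The 3 others were Cav2, Calcrl and Ramp2. Standard errors ran from 0.13 on the log2 scale for Rgs5, with 4723 reads over the 6 libraries, to 0.40 for Calcrl, with 174. In whole-heart extracts, fewer vessel cells and less RNA per vessel cell cannot be told apart.

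**Figure D1:**
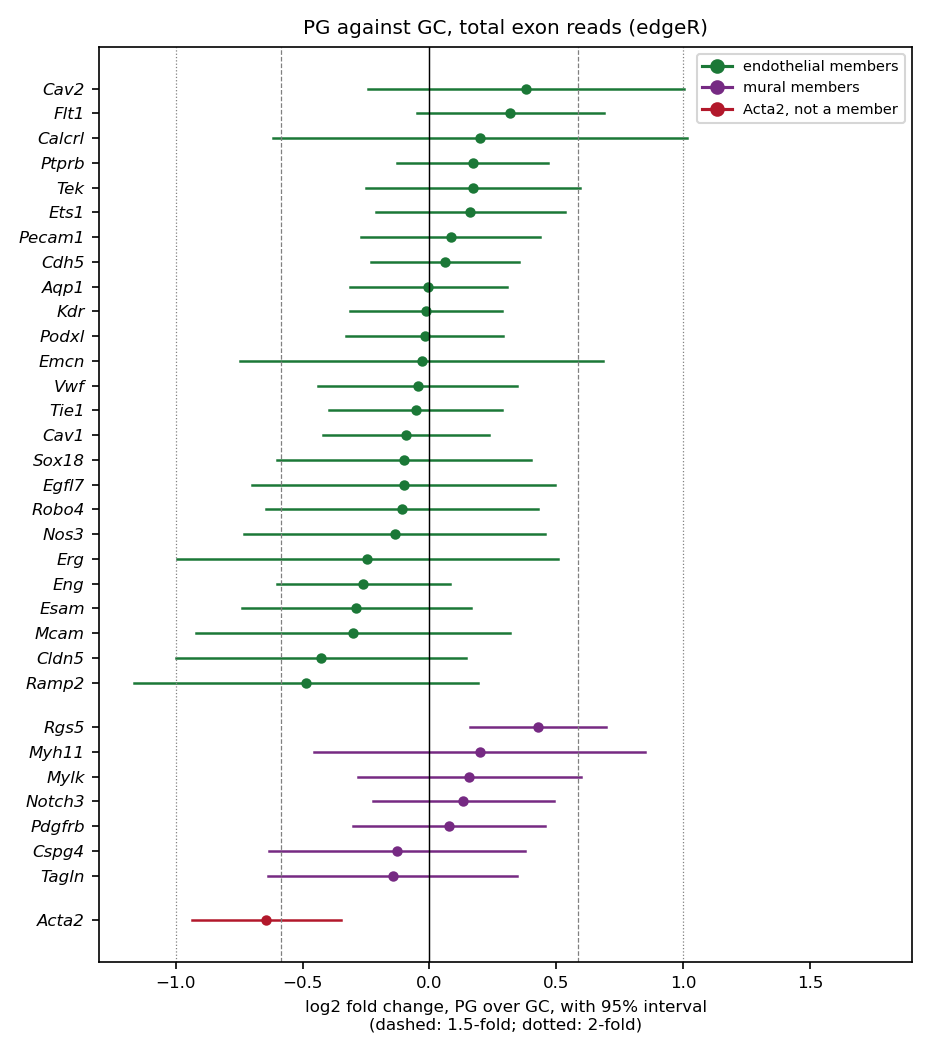
The log2 fold change of each tested member (PG over GC, points) with its 95% interval (lines), endothelial genes above and mural genes below, and Acta2, a smooth muscle gene that is not a member, at the bottom. Among the members, only the interval of Rgs5 (0.16 to 0.70) leaves out 0.

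Levels are compared between genes only per length, as CPM per kilobase of exon, and exon length includes untranslated parts that few ribosomes cover. Aqp1, the water channel of the capillary endothelium, and Rgs5, a regulator of G-protein signalling that marks pericytes, stood highest at 65.2 and 64.3 CPM per kilobase over the 6 libraries. They overlapped with each other, and every library of Rgs5 (49.8 to 81.7) lay above every library of the next gene, the caveola protein gene Cav1 (26.9 to 40.8). The junction gene Cdh5, the TGF-beta co-receptor gene Eng and the surface sialomucin gene Podxl followed at 27.1, 22.2 and 19.4. From Cav1 down, each gene's range overlapped with that of the next until Cspg4, the NG2 proteoglycan of pericytes, at 1.81. Sox17, a factor of arterial endothelium, and Cnn1, the smooth muscle calponin, came last at 0.43 and 0.16. Of the 33 neighbouring pairs in this order, 31 overlapped. Rgs5 alone gave 60.7% of all mural reads.

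**Figure D2:**
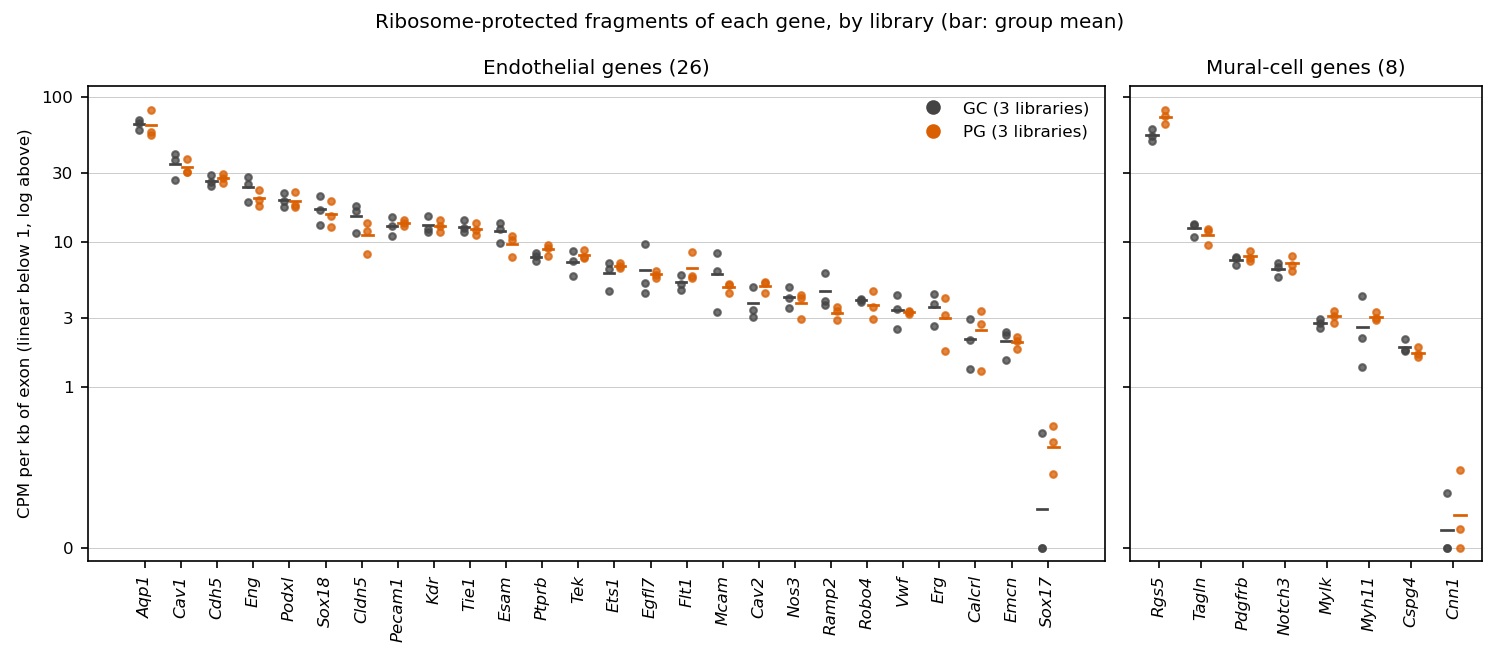
CPM per kilobase of exon for the 26 endothelial and 8 mural genes, each ordered by its mean, with 1 point per library and a bar at each group's mean; the axis is linear below 1 and logarithmic above. Aqp1 and Rgs5 stand at 65.2 and 64.3, while Sox17 and Cnn1 lie under 1 with libraries at 0.

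None of the growth factor and angiopoietin receptors passed the test. Kdr, the main signalling receptor for vascular endothelial growth factor (chromosome 5, 75932827 to 75979072, GRCm38.p6), stood at 107, 136 and 112 CPM in GC replicates 1, 2 and 3 and at 117, 107 and 128 in PG. The groups overlapped fully, and the log2 fold change was -0.01 with a 95% interval of -0.31 to 0.29. Flt1, which binds the same ligand and can hold it away from Kdr, had 54.4, 59.6 and 69.3 CPM in GC and 65.5, 67.2 and 98.6 in PG. PG replicate 3 was the highest of the 6 and the other PG values lay within the GC range. The log2 difference, 0.32 ± 0.18 (SE), did not pass (edgeR adjusted p = 0.557), and it was 0.11 without PG replicate 3. The angiopoietin receptor gene Tek averaged 34.5 ± 6.65 CPM (SD, n = 3) in the GC and 38.4 ± 2.74 in the PG libraries, and its relative Tie1 at 63.0 ± 5.97 and 60.7 ± 6.15. Ptprb, the phosphatase that dampens Tek signalling, had 94.8 ± 6.22 CPM in GC and 106 ± 9.03 in PG. Eng had 98.0 ± 19.2 and 81.4 ± 11.01, a log2 fold change of -0.26 ± 0.17.

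The receptor for adrenomedullin is a pair, Calcrl with its partner Ramp2, and the members of that pair had opposite signs. Ramp2 (chromosome 11) read 20.2, 12.2 and 13.1 CPM in GC and 10.98, 9.55 and 11.7 in PG. All 3 PG values lay under the GC values, by a margin of 12.2 against 11.7. Its log2 difference of -0.49 ± 0.33 (SE) had an interval of -1.16 to 0.19 (edgeR adjusted p = 0.651). Calcrl had 10.4 ± 3.96 CPM in GC and 12.0 ± 5.19 in PG, with an interval of -0.62 to 1.01. With 200 and 174 reads over all libraries, these intervals are among the widest of the 32. The log2 fold change of Calcrl, 0.20, became -0.30 on total gene reads, -0.04 without GC replicate 2 and -0.07 without PG replicate 3. Robo4, a guidance receptor of the endothelium, had 21.0 ± 0.438 and 19.7 ± 4.45 CPM.

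The junction and surface genes did not pass either. Cdh5, the endothelial cadherin, read 109, 104 and 122 CPM in GC and 125, 116 and 108 in PG. The ranges overlapped, and the log2 fold change was 0.06 with an interval of -0.23 to 0.35. Pecam1, the adhesion molecule used most often to mark endothelium, had 55.6 ± 8.22 CPM in GC and 58.7 ± 3.02 in PG. The tight-junction gene Cldn5 read 16.4, 23.1 and 25.2 CPM in GC and 19.3, 16.9 and 11.7 in PG. PG replicate 3 was the lowest of the 6 and GC replicate 1 lay inside the PG range. Its difference of -0.43 ± 0.28 (log2, SE) did not pass (edgeR adjusted p = 0.632). The junctional adhesion gene Esam (34.2 ± 5.43 and 27.9 ± 4.73 CPM) and the adhesion molecule gene Mcam (20.2 ± 8.65 and 16.4 ± 1.19), which pericytes share, also had negative values. Podxl stood at 107 ± 12.1 and 106 ± 14.1 CPM, and the capillary and venous sialomucin gene Emcn at 11.2 ± 2.58 and 11.04 ± 1.07.

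Aqp1 read 175, 158 and 182 CPM in GC and 215, 152 and 145 in PG. PG replicate 1 was the highest and PG replicate 3 the lowest of the 6, so the group means of 172 and 171 came from a wider spread in PG (SD of 38.6 against 12.7). Cav1, which forms caveolae, averaged 120 ± 24.9 CPM in the GC and 113 ± 13.8 in the PG libraries, and its partner Cav2 at 12.6 ± 3.38 and 16.7 ± 1.54. Cav2 and Cav1 lie 17.2 kb apart on chromosome 6. Their reads were mostly shared with other places in the genome, since 12.0% of Cav1 reads and 12.6% of Cav2 reads were unique. On its 225 unique reads, 106 in GC and 119 in PG, Cav1 had a log2 fold change of 0.08 ± 0.33 (SE), where all reads gave -0.09. Cav2 had 10 unique reads in GC and 20 in PG, too few to test.

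The secreted and enzyme genes Nos3, Egfl7 and Vwf were not called on exon reads. Nos3, the endothelial nitric oxide synthase, had 17.3 ± 2.82 CPM in GC and 15.7 ± 3.13 in PG, with 31.6% unique reads. Its log2 fold change was -0.14 on all reads and 0.24 ± 0.52 (SE) on unique reads. Egfl7, a secreted protein of growing vessels, read 13.97, 30.5 and 16.5 CPM in GC and 20.0, 17.8 and 18.8 in PG. GC replicate 2 was the highest of the 6, and without it the log2 fold change went from -0.10 to 0.30. Of Egfl7 reads 25.3% were unique. Tagln was the fifth member with under 50% unique reads. In 25 of the 32 tested members at least 95% of the reads were unique.

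Vwf, the clotting protein stored in endothelial granules, differed between the groups in its intron reads. Its exons held 143, 128 and 130 reads in GC and 162, 165 and 110 in PG. The log2 fold change of the exon reads was -0.05 with an interval of -0.44 to 0.34. Its introns held 231, 135 and 129 reads in GC and 4, 7 and 16 in PG. Every GC library lay above every PG library, with 495 intron reads in GC and 27 in PG. In the same edgeR test on intron reads alone, chosen after these reads were seen, the intron reads of Vwf fell by 4.08 ± 0.55 (SE) on the log2 scale in PG, with an adjusted p of 0.00079 over 1177 genes tested, of which 2.63% were called, 2.21% lower in PG. The adjusted p stayed between 0.00016 and 0.023 when any 1 library was left out, with fold changes from -4.72 to -3.36. Of the other 5 members with enough intron reads, none was called (Pecam1, Flt1, Ptprb, Calcrl and Ets1). Ptprb was the one with an unadjusted p under 0.05, at -1.41 ± 0.54 and an adjusted p of 0.208 (edgeR). Whether the intron reads of Vwf (chromosome 6, 125552948 to 125686679) come from ribosomes was not tested, and the table does not say which intron holds them.

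**Figure D3:**
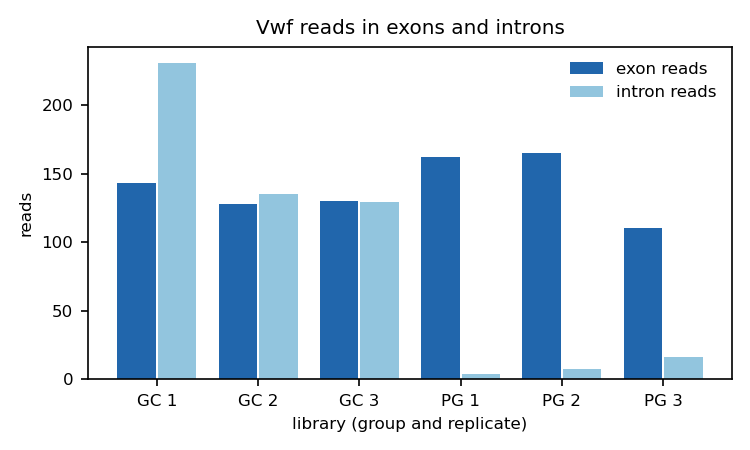
Reads of Vwf in exons (dark bars) and introns (light bars) in each library. Exon reads run from 110 to 165 in all 6 libraries, while intron reads are 129 to 231 in GC and 4 to 16 in PG.

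Among the transcription factors of the endothelium, Sox18 had the highest level per length, at 16.3 CPM per kilobase against 6.48 for Ets1, 3.30 for Erg and 0.43 for Sox17. Ets1 had 51.6 ± 11.2 CPM in GC and 58.2 ± 2.19 in PG. Sox18 stood at 27.3 ± 6.12 and 25.5 ± 5.37 CPM and Erg at 12.5 ± 3.08 and 10.4 ± 4.12. None of their intervals left out 0. Sox17 was not tested: it had 0, 0 and 10 reads in GC replicates 1, 2 and 3 and 6, 9 and 7 in PG. In CPM, GC replicate 3 (3.11) lay inside the PG range of 2.00 to 3.29 and the other GC libraries below it.

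Among mural genes, Rgs5 (chromosome 1, 169655501 to 169695813) had the smallest p of all 34 members and still did not pass. It read 248, 226 and 273 CPM in GC and 371, 337 and 298 in PG, and all its reads were unique. Every PG library lay above every GC library. This is 0.43 ± 0.13 (SE) on the log2 scale, or 1.35-fold with a 95% interval of 1.12-fold to 1.62-fold (edgeR unadjusted p = 0.00301, adjusted p = 0.162). DESeq2 called it, with an adjusted p of 0.0293, where 1.39% of all genes were called, counting those without an adjusted p as not called. Limma-voom, which called 0.877% of all genes, did not, at 0.0906, and over the 16 other settings the adjusted p ran from 0.0293 to 0.530, the highest without PG replicate 1.

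None of the other pericyte genes passed the test. Pdgfrb, the growth factor receptor that recruits pericytes, had 41.3 ± 2.85 CPM in GC and 43.7 ± 3.83 in PG, a log2 fold change of 0.08 ± 0.18 (SE). Cspg4 had 22.7 ± 2.49 and 20.6 ± 1.80 CPM. Notch3, the Notch receptor of mural cells, had 52.8 ± 5.69 and 57.4 ± 6.96 CPM. Of its reads 70.8% were unique, and on those its log2 fold change was -0.05, where all reads gave 0.13. Without Rgs5, the other 7 mural genes summed to 175 to 196 CPM in GC and 189 to 201 in PG, ranges that overlap. Summed, the 26 endothelial genes spanned 1317 to 1428 CPM in GC and 1311 to 1442 in PG.

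**Figure D4:**
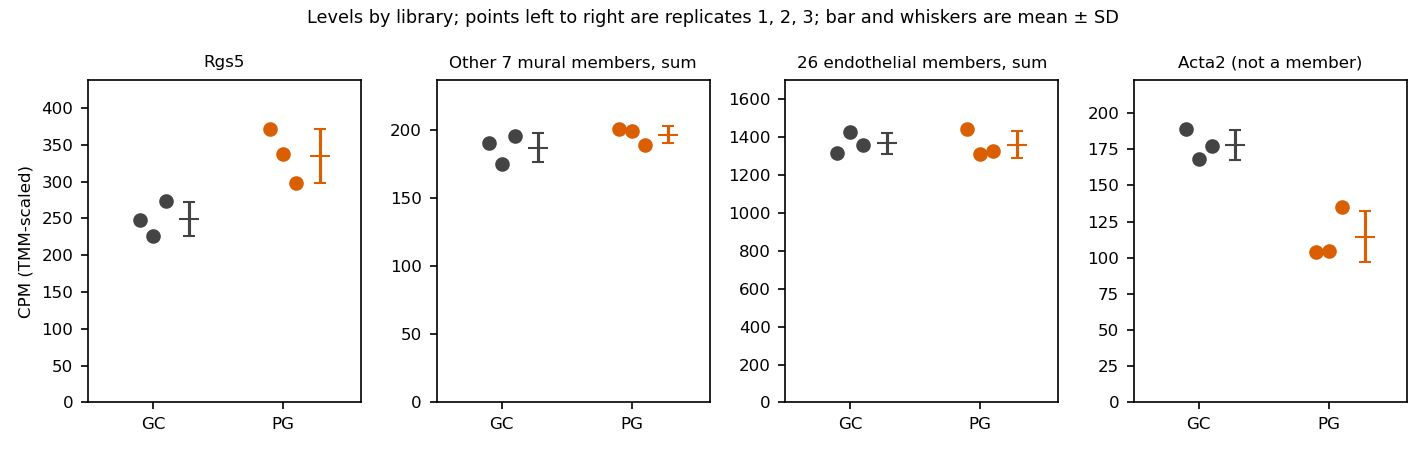
CPM by library for Rgs5, for the sum of the other 7 mural members, for the sum of the 26 endothelial members and for Acta2, with group mean and SD beside the points. Rgs5 lies higher and Acta2 lower in every PG library, while both sums overlap between the groups.

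The contractile members gave no call. Myh11, the smooth muscle myosin, read 14.5, 9.14 and 28.3 CPM in GC and 19.3, 22.0 and 19.7 in PG. GC replicates 1 and 2 lay under and GC replicate 3 above all PG values. The log2 fold change of 0.20 ± 0.32 (SE) became 0.79 without GC replicate 3 and -0.10 without GC replicate 2, and neither passed. Tagln, an actin-binding protein of smooth muscle, had 24.8 ± 2.63 CPM in GC and 22.5 ± 3.05 in PG. With 33.7% of its reads unique, it had a log2 fold change of -0.15 on all reads and on unique reads. Mylk, the kinase that starts smooth muscle contraction, had 27.96 ± 1.86 and 31.2 ± 3.13 CPM. Cnn1 was not tested, with 0, 0 and 3 reads in GC and 4, 1 and 0 in PG.

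Other genes of the mural program were read from a list of 32, of which 28 were tested. The 1 gene called was Acta2, the smooth muscle actin, which fell, where 0.581% of all genes were called and 0.329% were called lower. The other 27 did not pass in edgeR, and the median log2 fold change of the list was 0.06. Acta2 read 189, 168 and 177 CPM in GC and 104, 104 and 135 in PG. Every PG library lay below every GC library, as for 8.25% of all genes tested. Acta2 fell by 0.64 ± 0.14 (SE) on the log2 scale, a 1.56-fold lower level (edgeR adjusted p = 0.0321). Of its reads 99.3% were unique, and on those the value was -0.64 too. Among the settings that ended the call were library size alone (adjusted p in edgeR of 0.0945), total gene reads (0.0768), and leaving out GC replicate 1 (0.101), GC replicate 2 (0.109), PG replicate 1 (0.173) or PG replicate 2 (0.248). Of 16 other settings, 9 kept it and 7 did not. Beside it, the most abundant genes of the list, Tpm1 (-0.35 ± 0.11), Des (0.06 ± 0.13) and Abcc9 (0.10 ± 0.13), did not pass in edgeR, and cardiomyocytes express all 3 strongly. Tpm1 lay lower in every PG library than in any GC library. DESeq2 (adjusted p = 0.0215) and limma-voom (adjusted p = 0.0315) called Tpm1, where they called 1.39% and 0.877% of all genes. The potassium channel partner of Abcc9 in pericytes, Kcnj8, had a log2 fold change of 0.00 ± 0.30.

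From a list of 44 other endothelial genes, ligands and fat-handling genes of the capillary, 38 were tested, none was called by edgeR, and the median was 0.09. At an unadjusted p under 0.05, 2 of the 38 were higher and 5 lower, where the shares over all genes were 4.82% and 5.62%. Lpl, the lipase that endothelium displays but other heart cells make, read 2291, 2398 and 2423 CPM in GC and 2929, 2973 and 3568 in PG. All PG values lay above the GC values, by 0.41 ± 0.12 (SE) on the log2 scale (edgeR adjusted p = 0.119). Fabp4, the fatty acid carrier of capillary endothelium, read 227, 233 and 223 CPM in GC and 166, 141 and 185 in PG. Here all PG values lay below the GC values, at a log2 difference of -0.48 ± 0.13 (edgeR adjusted p = 0.119). DESeq2 called Lpl, Fabp4 and Ptrf. Limma-voom called Lpl alone of this list, at 0.0228. The fatty acid receptor gene Cd36 had 899 ± 119 CPM in GC and 952 ± 56.7 in PG, and the growth factor gene Vegfa 72.1 ± 11.8 and 78.3 ± 3.58.

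Markers of other cells were read beside these genes. The 8 ventricular cardiomyocyte markers, led by Myh6 and Atp2a2, summed to 42401 to 44449 CPM in GC and 36486 to 42406 in PG, and none was called. The 8 fibroblast markers, led by Dcn and Col1a1, summed to 590 to 649 CPM in GC and 553 to 560 in PG, and none of the 7 tested was called. The 4 lymphatic markers, led by Prox1 and Flt4, summed to 97.3 to 117 CPM in GC and 124 to 136 in PG, and the 3 tested were not called. The median log2 fold change of those 3 was 0.01, with Flt4 at -0.05 and the highest at 0.40, so the sums do not speak for the list as a whole. The 3 endocardial markers summed to 38.8 to 42.7 and 35.3 to 48.4 CPM. The 8 macrophage and leukocyte markers summed to 251 to 283 and 186 to 258 CPM, and the 5 erythroid ones to 1142 to 1839 and 959 to 1562. Of the 5 erythroid genes 3 were lower at an unadjusted p under 0.05 and none was called (lowest edgeR adjusted p = 0.054), with GC replicate 3 lowest in GC and PG replicate 3 highest in PG. At the same unadjusted p, 2 of 7 fibroblast, 2 of 4 atrial and 1 of 6 macrophage and leukocyte genes were lower, where the share over all genes was 5.62%. Higher were 1 of 8 ventricular, 1 of 3 lymphatic and 1 of 3 endocardial genes, against 4.82% of all genes. The 4 atrial markers summed to 1148 to 1779 and 1083 to 1344 CPM. The kidney markers, led by Kap, summed to 19.6 to 29.4 CPM in GC and 0.32 to 5.64 in PG, and the liver markers, led by Alb, to 11.5 to 107 and 3.50 to 13.3. The skeletal muscle list, led by Ckm, which the heart expresses as well, summed to 1424 to 2039 and 954 to 1243 CPM. No marker with a row in the table was at 0 in all libraries. In each of the last 3 lists 1 gene had enough reads to be tested (Kap, Alb and Ckm). By edgeR each was called lower in PG, where 0.329% of all genes tested were called lower. The call of Alb rested on GC replicate 2, which held 180 of its reads against 19 and 23 in the other GC libraries, and without it the log2 fold change went from -2.97 to -1.04 (edgeR adjusted p = 0.667); it was also lost without PG replicate 2 or 3. That of Ckm was lost without GC replicate 1 or 2 or PG replicate 1 or 2, and that of Kap held without any 1 library; these fits were read after the values were seen. Their part in the values of Rgs5, Acta2 and Vwf was not tested.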

How the data were processed

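Ribosome-protected fragments of mouse hearts were sequenced in 6 libraries, 3 GC and 3 PG. Per the labels' protocols, nuclei, debris and mitochondria were spun out, RNase I was used, and 25 to 35 nt fragments were cut from a gel. Per the file headers, the authors deposited counts of reads per gene (total and unique exon reads, expression values, gene and intron reads), RPKM values, and a comparison with p-values and a signed fold change (a score) from a test named EDGE in the headers. The builds named in the submitters' processing notes are GRCm38 and mm10. The aligner, the counter and the use of strand were not given in the sources used here. RPKM values were not used, nor were 54 other value columns.

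Total exon reads were tested as counts with edgeR 4.0.16 (R 4.3.3; filterByExpr with minimum count 10, TMM factors, glmQLFit, glmQLFTest, group only), with Benjamini-Hochberg adjustment over all 9124 genes tested and a threshold of 0.05. SE and 95% intervals come from the F statistic. CPM are TMM-scaled. Alternatives were DESeq2 1.42.0, limma-voom (limma 3.58.1), library size alone, removal of Lars2 and Tmem38b, no filter or a minimum count of 30, other read types, the replicate number as a block, and each library left out. Tests were checked on simulated counts. PCR duplicates were not removed here, so intervals cover the spread between these libraries and no more.

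The members, lists, tests and alternatives were chosen with earlier results of these data known. The named genes are all members, called genes and the 3 most abundant of each other list, and the 2 most abundant markers of each cell type. Kcnj8, Vegfa, Ptrf, Apln, Notch4, Gata2, Gpihbp1, Aplnr and Mir126a were named after their values were seen. All 34 members matched RefSeq symbols of GRCm38.p6.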

Additional observations from a re-analysis of the deposited data

How the results depend on the processing

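Genes called over all genes tested numbered 53, and 127 with DESeq2, 80 with limma-voom, 181 with no filter, 90 on unique exon reads, 88 on the authors' expression values, 22 with the replicate block, and 19 (without GC replicate 2) to 102 (without GC replicate 3) with a library left out; 25 were called without PG replicate 1 and 26 without PG replicate 2. Same-numbered libraries did not deviate together (correlations of -0.01, -0.03 and -0.01), so the block is no pairing. Members called went from 0 to 1 with DESeq2 (Rgs5) and to 1 on total gene reads (Vwf, -1.11, adjusted p in edgeR of 0.0475), which count its introns, and stayed at 0 elsewhere, the block and each library left out included. Of the other endothelial list 3 were called with DESeq2 and 1 each with limma-voom, library size alone, no filter, unique reads and expression values. Of the other mural list 2 (Acta2 and Tpm1) were called with each of DESeq2 and limma-voom. The count was 0 with library size alone, total gene reads, the block (Acta2 adjusted p in edgeR of 0.134) and without 4 of the libraries (0 to 1). The endothelial median ran from -0.10 to 0.0364 (without PG replicate 2). The mural median ran from 0.0729 (expression values) to 0.20 (library size alone). DESeq2 gave no adjusted p to the tested members with 573 reads or fewer (Tek and those below it), nor to Apln and Notch4. A value without an adjusted p was counted as not called, and so as keeping its side of the threshold. Of 510 member values under the 16 alternatives, 465 kept their sign and side of the threshold, and 43 in 16 members changed sign, from main values of at most 0.24 in size. With library size alone, these were Kdr (0.039), Vwf (0.0198), Emcn (0.0313), Aqp1 (0.0692) and Podxl (0.0483); on total gene reads Kdr (0.0313), Aqp1 (0.0322), Podxl (0.0208) and Calcrl (-0.30); on unique reads Nos3 (0.24), Cav1 (0.0837) and Notch3 (-0.0482); on expression values Cav1 (0.0402) and Notch3 (-0.0567); with limma-voom Vwf (0.0149); and for Aqp1 0.0046 with no filter and 0.0012 with a minimum count of 30. With a library left out, the sign changed within these ranges: Pecam1 -0.0261 to 0.20, Kdr -0.0779 to 0.10, Tie1 -0.13 to 0.0218, Vwf -0.24 to 0.15, Emcn -0.21 to 0.0735, Egfl7 -0.29 to 0.30, Robo4 -0.28 to 0.0364, Nos3 -0.26 to 0.0249, Aqp1 -0.21 to 0.10, Podxl -0.14 to 0.0689, Cav1 -0.25 to 0.035, Calcrl -0.0686 to 0.51, Sox18 -0.28 to 0.0877, Erg -0.54 to 0.00148, Myh11 -0.10 to 0.79, and Des -0.0369 to 0.20. The cause was not tested.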

Other observations

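Ligands, receptors and factors outside the 34 members also differed at an unadjusted p under 0.05, and none was called by edgeR. Apln, the peptide made by tip cells of growing vessels, read 16.4, 6.53 and 8.08 CPM in GC and 4.32, 3.50 and 0.94 in PG, a log2 fold change of -1.73 ± 0.54 (SE) with an adjusted p of 0.182 (edgeR), and its receptor gene Aplnr overlapped between the groups. Notch4, an endothelial Notch receptor, averaged 31.0 ± 2.20 CPM (SD, n = 3) in the GC and 18.3 ± 4.11 in the PG libraries, with PG below GC in every library and an adjusted p of 0.202 in edgeR. Gpihbp1, which carries lipoprotein lipase across the capillary wall, had 15.1 ± 3.28 and 8.81 ± 2.78 CPM. Ptrf, the caveola coat gene that works with Cav1, had 213 ± 18.2 and 158 ± 9.41 CPM, with an adjusted p of 0.175 in edgeR and 0.0372 in DESeq2. Gata2, a factor of endothelial and blood progenitor cells, was higher in every PG library (1.69 ± 0.739 and 5.05 ± 0.824 CPM), at few reads and an adjusted p of 0.368 (edgeR). These 5 are the genes of the list of 44 at an unadjusted p under 0.05, beside Lpl and Fabp4, and were picked after their values were seen.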
